A study of Mus musculus with 4 samples.

Results

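The genes described here encode the machinery that copies DNA in S phase: the licensing factors and helicase, primase and polymerases, the sliding clamp and its loader, single-strand binding, flap removal and ligation, nucleotide supply, and cyclin E. The list holds 39 genes, matched by symbol to the deposited table. Each of the 39 had exactly 1 of the table's 11747 rows, and all passed the filter on low values. The table lists only expressed genes: every row reached at least 101 estimated reads in some library. The libraries came from motor neuron cultures derived from mouse embryonic stem cells of the A172LoxP line, all engineered to carry a doxycycline-inducible transcription factor. Embryoid bodies, which are floating aggregates of the cells, received 0.5 µM all trans retinoic acid and the Shh agonist purmorphamine at 1 µM for 2 days. They were then kept for 2 to 3 more days with vehicle (libraries 1 and 7) or with 2 µg/mL doxycycline (libraries 2 and 8). A line without the transgene was not analysed here, so an effect of doxycycline itself cannot be told apart from that of the induced factor. Nothing in the labels says whether the replicates are independent cultures. The p-values rest on the scatter of 2 libraries a group, pooled in part with that of other rows. This scatter may be technical only.

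DNA replication starts when the origin recognition complex, with Cdc6 and Cdt1, loads the ring-shaped Mcm2 to Mcm7 helicase onto DNA in G1. Entry into S phase activates the helicase with the GINS complex, primase lays down short primers, and polymerases held on DNA by the PCNA clamp extend them. In the embryonic spinal cord this machinery is used by dividing progenitors and is shut down when a cell leaves the cycle to become a neuron. Many of its genes are known targets of the E2F transcription factors, which are released when cyclin-dependent kinases inactivate the retinoblastoma family of pocket proteins.

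The table held 26449555 to 27047458 normalized read counts per library, from an estimated 22434755 to 30235763 reads. The cultures expressed markers of several cell states. All 9 motor neuron markers examined, Isl1, Mnx1 and Chat among them, were listed and above 0 in every library. So were all 15 neural progenitor markers and 12 of 15 endoderm and mesoderm markers. Because the table lists only expressed genes, a listed marker could hardly have been at 0. Transcripts that mark progenitors and endoderm were among those listed for the labelled motor neuron cultures. Over all rows, 278 passed the test for a difference with doxycycline, 68 of them higher and 210 lower. That test was limma's moderated test on log2(normalized count + 1), two-sided, with Benjamini-Hochberg adjustment over all rows and a threshold of 0.05. Differences below are on this log2 scale, doxycycline minus no doxycycline, and are given ± SE with 2 libraries per group. The SE is limma's moderated one, which draws each gene's spread toward that of rows of like intensity.

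The replication genes were well expressed in both groups. Levels of different genes are compared only per kilobase of coding sequence, as the mean over the 4 libraries. On this scale the members ran from 222 for Ccne2, which encodes cyclin E2, to 9509 for Pcna, the sliding clamp, with a median of 1882. Among the 6 helicase subunits the level ran from 1818 for Mcm4 to 4751 for Mcm7, a ratio of 2.61, although the proteins work as a ring of equal parts. The large polymerase subunits Pola1 (319) and Pole (335) stood near the low end of the level scale. The small subunit of ribonucleotide reductase, Rrm2, was at 4576 and its large subunit Rrm1 at 3408 per coding kilobase. The sources used here do not give which parts of a transcript the authors counted. Per kilobase of whole transcript, Ccne2 and Pcna were again lowest and highest, and the ratio between Mcm7 and Mcm4 was 2.64. Ccne2 was also the member with the fewest estimated reads, 225 in library 2, where counting alone gives an error of 6.67%.

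**Figure D1:**
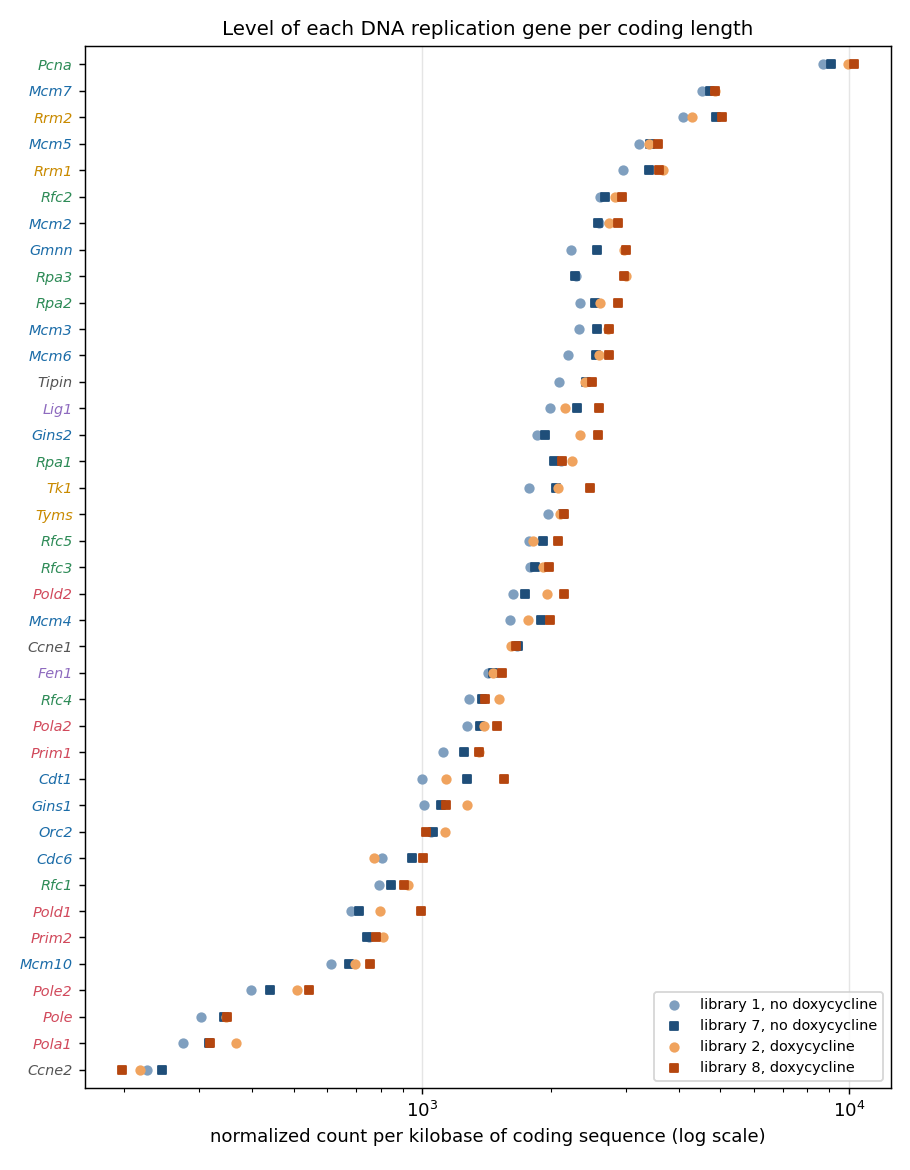
Normalized count per kilobase of coding sequence on a log axis for each of the 39 DNA replication genes, with 1 point per library and gene names coloured by role. Pcna is highest with a mean of 9509 and Ccne2 lowest with 222, and for most genes the 4 libraries lie close together.

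The promoters of several members carry letters of the type that E2F factors bind. RefSeq windows from 250 bases before to 50 after the transcription start (GRCm38.p6, a later build than the mm9 of the submitters' processing notes) were found for 30 of the 39 members. No window was matched for Gins1, Gins2, Gmnn, Rfc2, Tipin, Ccne2, Pole, Prim2 and Mcm4. The letters TTTGGCGC, TTTCCCGC, TTTCGCGC and TTTGCCGC were searched on both strands; the first and the third can overlap on opposite strands. A match was present in 11 of the 30 (36.7%), against 2.60% of 27025 genes with a window and 5.03% of 8393 genes of the deposited table with a window. The 11 were Mcm3, Mcm5, Mcm6, Mcm7, Cdc6, Cdt1, Pola1, Pold1, Pole2, Rfc3 and Lig1. A match is a description of the letters and not of binding. The CCAAT box (CCAAT, both strands) was in 18 of the 30 windows (60.0%), against 43.7% of the table's genes. The GC box (GGGCGG, both strands) was in 21 of the 30 (70.0%), against 72.6% of the table's genes. The windows of 6 of the 11 are shown as examples of the letters matched in genes of helicase loading and of the polymerases, 5′ to 3′ on the gene's strand. Capitals mark the match nearest the start site.
Mcm6 (chr1:128359721-128359776, minus strand): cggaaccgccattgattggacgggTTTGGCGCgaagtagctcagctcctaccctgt
Mcm3 (chr1:20820275-20820304, minus strand): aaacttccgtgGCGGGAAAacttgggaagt
Mcm7 (chr5:138171849-138171878, minus strand): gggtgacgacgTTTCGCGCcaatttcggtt
Cdc6 (chr11:98907989-98908044, plus strand): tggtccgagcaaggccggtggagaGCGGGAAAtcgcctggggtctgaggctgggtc
Pola1 (chrX:93632262-93632317, minus strand): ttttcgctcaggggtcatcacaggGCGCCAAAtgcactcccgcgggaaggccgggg
Pole2 (chr12:69228162-69228191, minus strand): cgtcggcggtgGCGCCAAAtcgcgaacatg

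The replication genes lay slightly higher with doxycycline, and none of them passed the test, in which libraries were not paired. Of the 39 members, 37 had a difference above 0, with a median of 0.13, while 50.6% of all rows were above 0, with a median of 0.00. The test called 0 of 39 members (limma, Benjamini-Hochberg over all rows), where it called 2.37% of all rows, 0.579% higher and 1.79% lower. At an unadjusted p under 0.05 there were 7 members, all higher, or 17.9% of the list, against 21.1% of all rows in either direction and 9.58% of all rows higher. Both doxycycline libraries lay above both others in 26 members (66.7%), against 26.7% of all rows. Both lay below in 2 members, Ccne1 and Ccne2, against 26.5% of all rows, and in the remaining 11 members the groups overlapped. The 95% intervals of the single differences reached neither a doubling nor a halving for any member: the highest upper bound was 0.68, for Cdt1, and the lowest lower bound -0.51, for Ccne2. With 2 libraries against 2, an exact permutation test cannot go below p = 0.333.

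**Figure D2:**
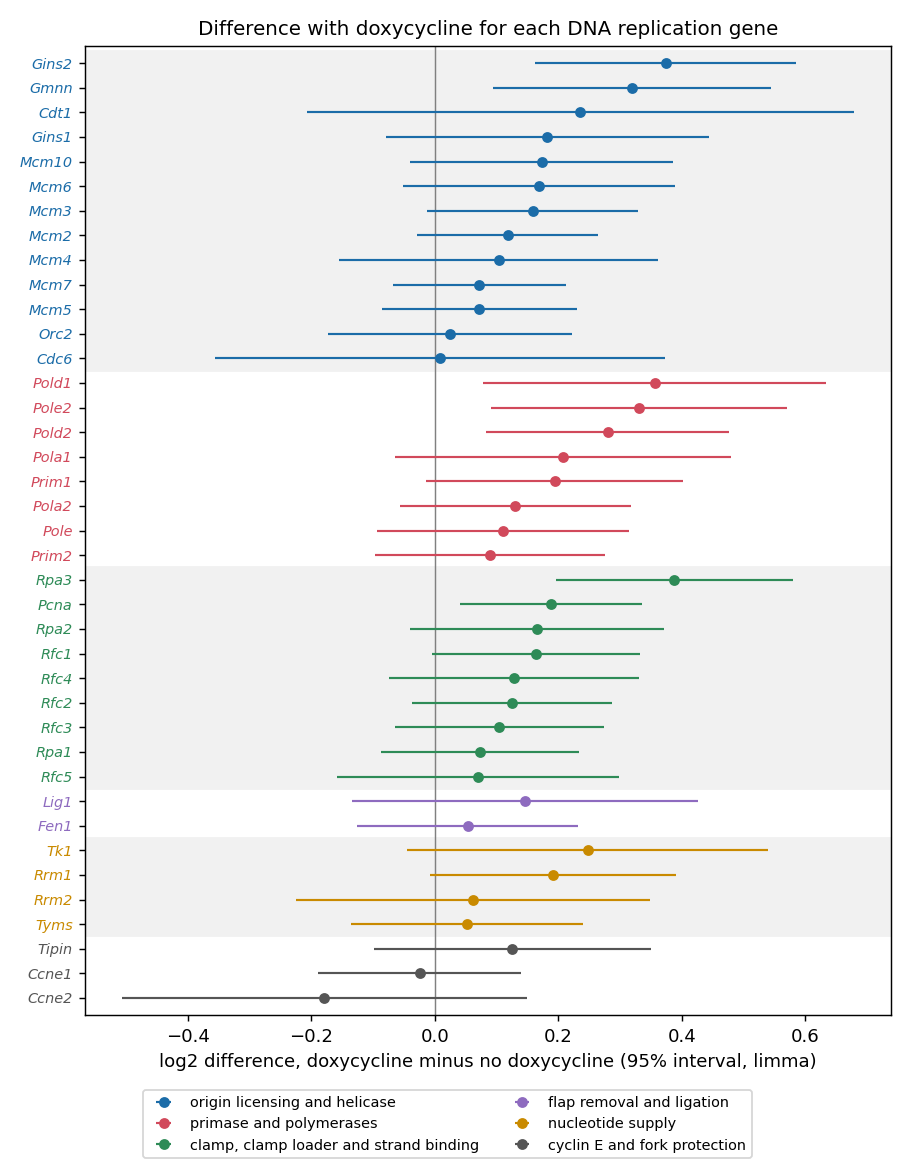
Log2 difference, doxycycline minus no doxycycline, with its 95% interval from limma for each of the 39 DNA replication genes, ordered by role and size. Of the 39 points 37 lie to the right of 0, and 7 intervals, those of Gins2, Gmnn, Pold1, Pole2, Pold2, Rpa3 and Pcna, do not include 0.

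Licensing factors and the helicase came first in the order of replication. All 13 genes of this group had values above 0, with a median of 0.16. In 8 of them (61.5%) both doxycycline libraries lay above both others, against 26.7% of all rows. Gins2, a subunit of the GINS complex that activates the helicase, had 1030 and 1080 normalized counts without doxycycline (libraries 1 and 7, in this order throughout) and 1304 and 1432 with it (libraries 2 and 8). Both doxycycline libraries were above both others, and the difference was 0.37 ± 0.09 (limma, adjusted p = 0.0889). Gmnn encodes geminin, which binds Cdt1 and blocks a further round of licensing in the same cycle. It had 1377 and 1589 counts without and 1836 and 1857 with doxycycline, again without overlap, a difference of 0.32 ± 0.09 (limma, adjusted p = 0.136). Cdt1 itself had 1673 and 2132 counts without and 1902 and 2601 with doxycycline. These groups overlapped, since library 7 lay above library 2, and the interval of its difference ran from -0.21 to 0.68. Cdc6, which loads the helicase together with Cdt1, had 1426 and 1671 counts without and 1361 and 1773 with doxycycline. Its lowest and highest values were both in doxycycline libraries, and the difference was 0.01 ± 0.15. Orc2, a subunit of the origin recognition complex, had a difference of 0.02 ± 0.08.

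The 6 helicase subunits differed little. Mcm2 had 7035 and 7025 counts without and 7445 and 7822 with doxycycline, a difference of 0.12 ± 0.06 without overlap. Mcm3 had 5693 and 6261 counts without and 6634 and 6698 with doxycycline, a difference of 0.16 ± 0.07. Mcm6 had 5404 and 6311 counts without and 6398 and 6743 with doxycycline, a difference of 0.17 ± 0.09. In each of these 3 genes both doxycycline libraries stood above both others, though library 2 was close to library 7 for Mcm6. The same held for 26.7% of all rows. Mcm7 had 9783 and 10201 counts without and 10504 in each doxycycline library, also without overlap, a difference of 0.07 ± 0.06. Mcm4 (4159 and 4913 without, 4568 and 5165 with doxycycline) had a difference of 0.10 ± 0.10. Mcm5 (7104 and 7534 without, 7506 and 7881 with doxycycline) had one of 0.07 ± 0.06. The groups overlapped for Mcm4 and Mcm5, and the 6 subunits had adjusted p values from 0.263 to 0.622 (limma). Among the 95% intervals of the 6, the highest upper bound was 0.39, for Mcm6. Mcm10, which helps start the fork, had a difference of 0.17 ± 0.09 and Gins1 one of 0.18 ± 0.11.

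Primase and the polymerases had the highest median of the larger groups, 0.20. All 8 genes had values above 0. In all 8 both doxycycline libraries lay above both others, against 26.7% of all rows. Pold1, the catalytic subunit of polymerase delta, had 2259 and 2355 counts without and 2648 and 3292 with doxycycline. Library 8 stood well above library 2, and the difference was 0.36 ± 0.11 (limma, adjusted p = 0.159). Pold2, the second subunit of the same enzyme, had 2297 and 2458 counts without and 2754 and 3023 with doxycycline, a difference of 0.28 ± 0.08 (limma, adjusted p = 0.134). Pole2, an accessory subunit of polymerase epsilon, had 628 and 695 counts without and 804 and 859 with doxycycline, a difference of 0.33 ± 0.10 (limma, adjusted p = 0.142). The catalytic subunit of that enzyme, Pole, differed by 0.11 ± 0.08, from 2076 and 2347 to 2372 and 2394 counts, with libraries 7 and 2 nearly level. Pola1, the catalytic subunit of the polymerase that extends the primers, had 1211 and 1395 counts without and 1610 and 1399 with doxycycline. Library 8 was barely above library 7, and the difference was 0.21 ± 0.11. Library 2 stood 0.41 above library 1, and library 8 stood 0.00 above library 7. Prim1, the catalytic subunit of primase, had 1400 and 1572 counts without and 1697 and 1699 with doxycycline, a difference of 0.19 ± 0.08. The other primase gene, Prim2 (0.09 ± 0.08), and the accessory subunit gene Pola2 (0.13 ± 0.08) had smaller values.

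Clamp, loader and strand-binding genes held the member with the smallest p. Rpa3, the smallest subunit of the single-strand binding protein RPA, had 831 and 827 counts without and 1089 and 1081 with doxycycline. The libraries of each group were nearly identical, so the SE came mainly from the spread shared with other rows. Rpa3 had a difference of 0.39 ± 0.08, or 30.8% higher, which missed the threshold (limma, unadjusted p = 0.00270, adjusted p = 0.0698). By unadjusted p it ranked 454 of the 11747 rows. The other RPA subunits had lower values, 0.17 ± 0.08 for Rpa2 and 0.07 ± 0.07 for Rpa1. Pcna had 6803 and 7118 counts without and 7814 and 8049 with doxycycline, without overlap, a difference of 0.19 ± 0.06 or 14.0% (limma, adjusted p = 0.159). Rfc1, the large subunit of the clamp loader, had 2688 and 2864 counts without and 3141 and 3077 with doxycycline, a difference of 0.16 ± 0.07. Of the other loader genes, Rfc4 at 0.13 ± 0.08, Rfc2 at 0.13 ± 0.07, Rfc3 at 0.10 ± 0.07 and Rfc5 at 0.07 ± 0.09. All 9 genes of the group were above 0. In all but Rfc5 both doxycycline libraries lay above both others (88.9%), against 26.7% of all rows.

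The last groups were flap removal and ligation, nucleotide supply (median 0.13), and cyclin E with fork protection (median -0.02). Fen1, which cuts the flaps of Okazaki fragments, had a difference of 0.05 ± 0.07, and Lig1, the ligase that seals them, 0.15 ± 0.11, both with overlap. Lig1 had 5578 and 6444 counts without and 6053 and 7275 with doxycycline, so library 7 lay above library 2. Tk1, thymidine kinase of the salvage pathway, had 1242 and 1439 counts without and 1457 and 1730 with doxycycline, a difference of 0.25 ± 0.12. Rrm1 had 7042 and 8095 counts without and 8704 and 8546 with doxycycline, 0.19 ± 0.08. The values were lower for its partner Rrm2 (0.06 ± 0.12) and for Tyms, which makes thymidylate (0.05 ± 0.08). Ccne2 had 274 and 297 counts without and 265 and 240 with doxycycline, and Ccne1 2038 and 2050 without and 1983 and 2037 with doxycycline. These partners of Cdk2, which drive entry into S phase, were the 2 members with values below 0, at -0.18 ± 0.13 and -0.02 ± 0.07 (limma, adjusted p = 0.497 and 0.877). Tipin, which protects stalled forks with Timeless, had a difference of 0.13 ± 0.09.

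**Figure D3:**
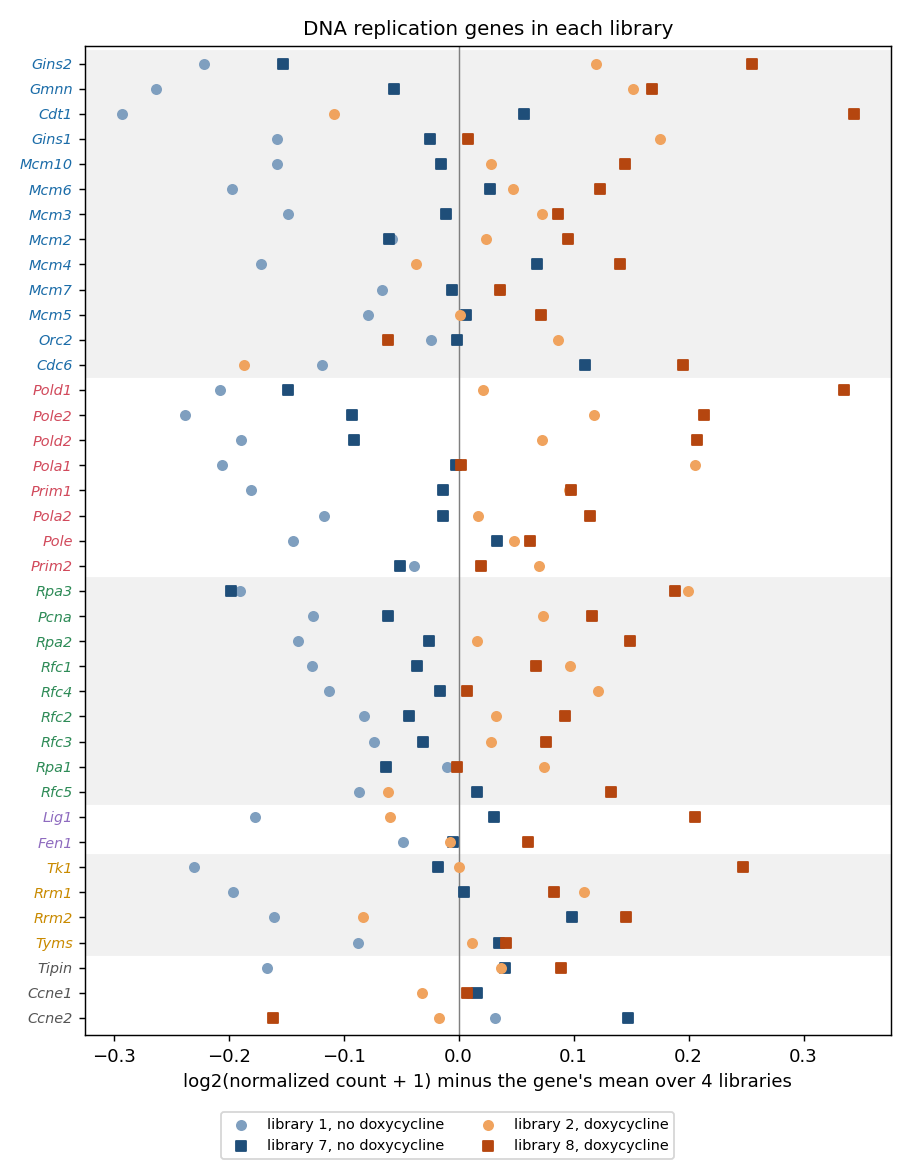
Log2(normalized count + 1) of each of the 39 DNA replication genes in each library, minus the gene's own mean over the 4 libraries, with genes in the order of their roles. Library 1 is the lowest of the 4 in 31 genes and library 8 the highest in 27, and the libraries of a group are often as far apart as the groups.

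Libraries of the same group also differed in these genes. Library 7 lay above library 1 in 35 of 39 members, with a median gap of 0.11, while over all rows this held for 48.1%. Library 8 lay above library 2 in 28 members, with a median gap of 0.05, and over all rows in 48.4%. Library 1 was the lowest of the 4 in 31 members, against 29.2% of all rows, and library 8 the highest in 27, against 28.0% of all rows. Cdt1 had the widest gap in both groups (0.35 without and 0.45 with doxycycline). The next widest were those of Rrm2 without (0.26) and Cdc6 with doxycycline (0.38). The difference with doxycycline exceeded both within-group gaps in 23 members (59.0%) and did not in 16, against 41.5% of all rows. Leaving out library 1, 7, 2 or 8 gave a member median of 0.090, 0.22, 0.17 and 0.10, and 33, 37, 36 and 34 members above 0. The number of members at an unadjusted p under 0.05 was then 3, 14, 10 and 3, where the shares of all rows were 11.4%, 19.6%, 16.9% and 13.3%. No member was called in any of these 4 fits.

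Within the lower-numbered libraries, 2 against 1, 36 of 39 members were higher with doxycycline, with a median of 0.18. Within the higher-numbered ones, 8 against 7, it was again 36 of 39, with a median of 0.10. Members above 0 in both comparisons numbered 35, and those below 0 in both were Ccne1 and Ccne2. Cdc6 was lower in library 2 than in 1 and higher in 8 than in 7, and Orc2 the reverse. Over all rows the share higher was near even in both, 50.6% in the second. The sources used here do not say whether the column numbers mark shared cultures or runs, and with 1 library a side neither comparison carries a test.

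**Figure D4:**
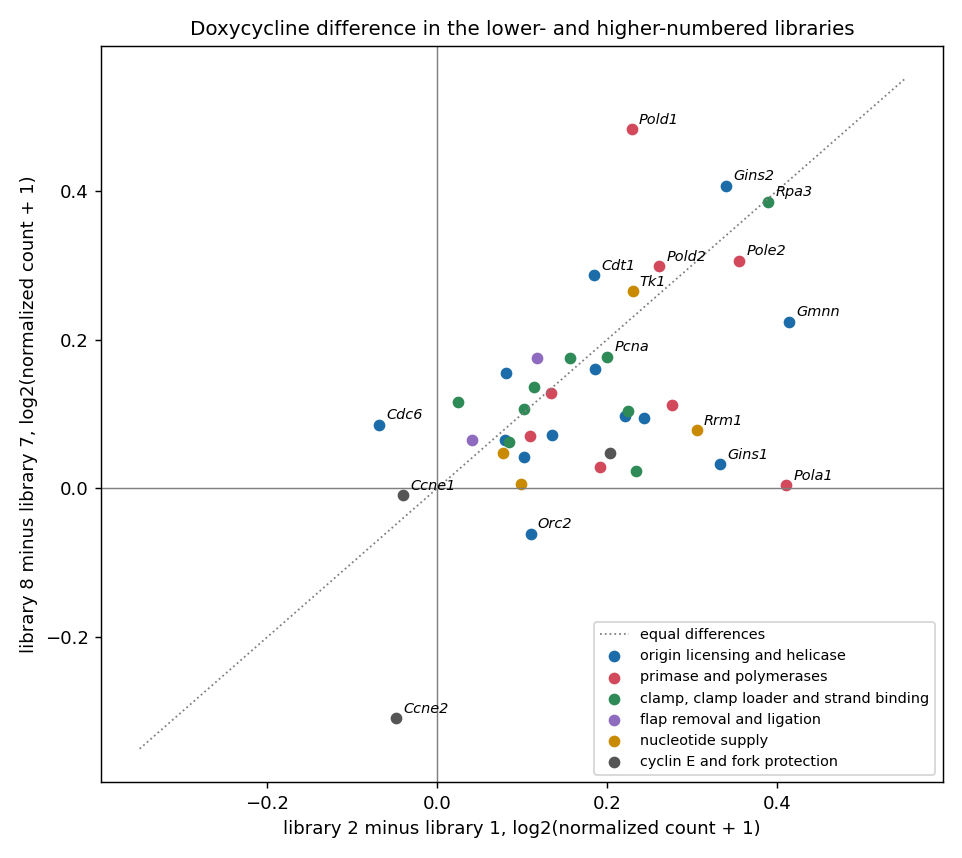
Difference in log2(normalized count + 1) between libraries 2 and 1 (x axis) and between libraries 8 and 7 (y axis) for each of the 39 DNA replication genes, coloured by role, with a dotted line of equal differences. Of the 39 points 35 lie above 0 on both axes, Pold1 lies farther above 0 on the y axis, and Pola1 and Gins1 are near 0 there.

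Other genes of S phase were read from the same fit, and no difference between lists was tested. Of 27 further origin and fork genes, 26 were above 0, with a median of 0.15, and none passed the test. The kinase gene Cdc7 (0.25 ± 0.07) and its activator Dbf4 (0.36 ± 0.07), which fire licensed origins, had adjusted p values of 0.141 and 0.0691 (limma). Dtl, which directs destruction of Cdt1 in S phase, was at 0.37 ± 0.09. All 11 replication-coupled chromatin genes were above 0, with a median of 0.15 and no call, among them the histone chaperone gene Nasp (0.19 ± 0.06). Of 11 further nucleotide supply genes 7 were above 0, with a median of 0.09 and no call, Dtymk, which phosphorylates thymidylate, being at 0.22 ± 0.07.

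Of 13 E2F and pocket protein genes, 12 had values above 0, with a median of 0.12, and none passed. The repressive E2f8 was at 0.29 ± 0.09, E2f5 at 0.30 ± 0.07 and the pocket protein gene Rbl1, which encodes p107, at 0.39 ± 0.14. E2f1, an activator of S phase genes, had 777 and 859 counts without and 836 and 946 with doxycycline, so that the groups overlapped. Among the members, the 11 with an E2F-type match in the promoter window had a median difference of 0.16 and the 19 with a window and no match one of 0.13. No test was made between these sets.

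Mitosis genes lay farther from 0 than the replication genes. All 25 were above 0, with a median of 0.28 against 0.13 for the members. In 22 of the 25 (88.0%) both doxycycline libraries lay above both others, against 26.7% of all rows. Prc1, which bundles microtubules of the dividing cell's midzone, was the 1 gene of the 25 that passed the test as higher, where 0.579% of all rows did. Its counts were 2595 and 2748 without and 3496 and 3668 with doxycycline (0.42 ± 0.07, limma, adjusted p = 0.0458), close to the threshold of 0.05. Bub1 (0.35 ± 0.08), Ccnb1 (0.32 ± 0.07) and Cdk1 (0.26 ± 0.06) did not pass. In every one of the 25 genes library 1 was the lowest of the 4, against 29.2% of all rows. In 24 library 8 was the highest, against 28.0% of all rows. The gap between the lists was not tested.

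**Figure D5:**
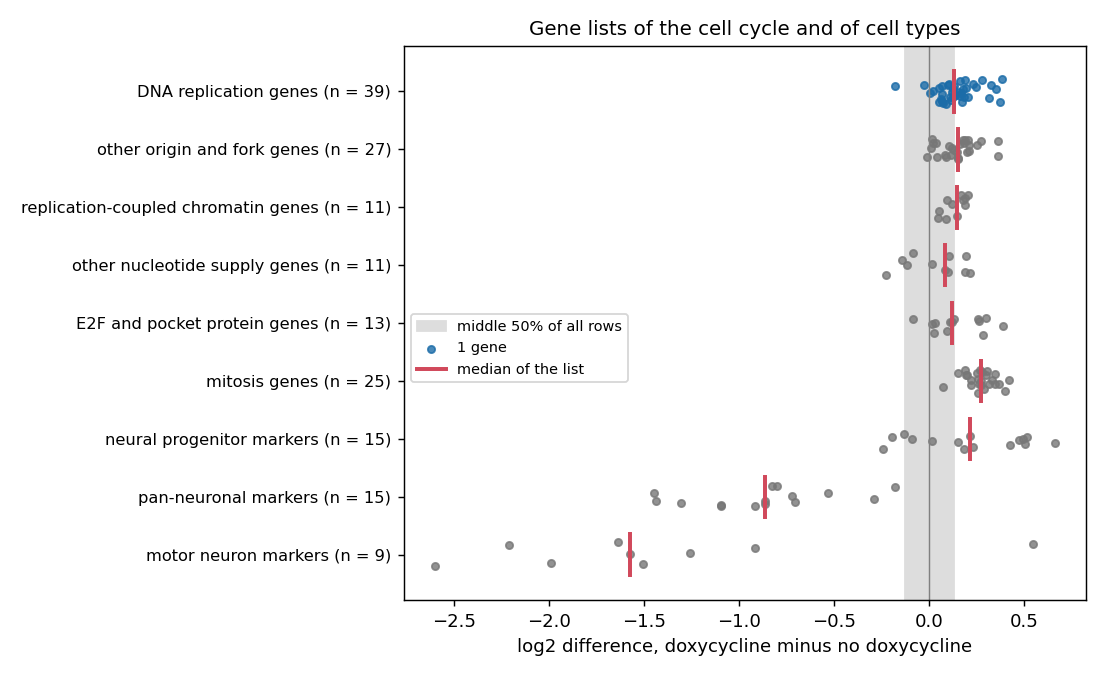
Log2 difference, doxycycline minus no doxycycline, of each gene (points) in 9 lists, with the median of the list as a red bar and the middle 50% of all rows as a grey band. The replication genes have a median of 0.13 and the mitosis genes one of 0.28, while the pan-neuronal and motor neuron markers have medians of -0.86 and -1.57.

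Markers of neurons and of other cells were read beside these values. All 15 pan-neuronal markers had values below 0, with a median of -0.86. Of these, 11 passed the test as lower, where 1.79% of all rows did. The summed level of the 15 was 155613 to 176392 normalized counts without and 70942 to 88113 with doxycycline. Of 9 motor neuron markers 8 passed the test as lower. The 9 had summed levels of 14274 to 15082 without and 5520 to 6379 with doxycycline. The exception, Lhx3, had a value of 0.55 and did not pass. None of the 15 neural progenitor markers passed, 11 were above 0, and their sums were 52027 to 53393 without and 53469 to 59156 with doxycycline. Vim, the most abundant of the 15, weighed most in these sums and had a difference of 0.02 ± 0.08. The progenitor markers did not all point one way. In 9 (60.0%) both doxycycline libraries lay above both others, against 26.7% of all rows. In 4 both lay below, against 26.5% of all rows. Sox2, a transcription factor of neural progenitors, had 1833 and 2074 counts without and 2405 and 2861 with doxycycline. The 4 with values below 0 were Nkx6-1 (-0.24 ± 0.09), Id3 (-0.20 ± 0.07), Nes (-0.13 ± 0.06) and Id1 (-0.09 ± 0.08). None of these listed markers was at 0 in any library, in a table that lists only expressed genes. In such bulk samples a larger share of dividing cells and more of these transcripts per cell cannot be told apart. The part of the neuronal and progenitor markers in the replication values was not tested.

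Most endoderm and mesoderm markers differed mainly between libraries of the same group. Library 7 lay above library 1 in 11 of the 12 listed, against 48.1% of all rows. Library 8 lay above library 2 in 9, against 48.4% of all rows. Acta2 went the other way, from 837 to 376 counts without and from 520 to 344 with doxycycline. Kdr differed mainly with doxycycline, with 121 and 126 counts without and 70 and 66 with it. So did Col1a1, with 392 and 411 counts without and 525 and 475 with doxycycline. The 12 listed of 15 summed to 269115 and 519706 counts without and to 201216 and 476723 with doxycycline. The most abundant was Col4a1, a basement membrane collagen gene, at 132457 and 276654 without and 96510 and 246997 with doxycycline. Lama1 and Sparc came next, and together with Col4a1 they made up most of each sum. Of these markers 10 had values below 0 with doxycycline and none passed the test. The 7 listed of 10 pluripotency markers summed to 2652 and 1918 counts without and to 2337 and 1671 with doxycycline, lower in the higher-numbered libraries of both groups. The replication genes were higher in library 7 than in 1 and in 8 than in 2, as given above. The part of the endoderm markers in that gap was not tested.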

How the data were processed

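Values are the authors' normalized read counts, a signal in which reads per gene were scaled between libraries. Tools listed in the submitters' processing notes, without versions or roles, are TopHat2, HTSeq, DESeq and CASAVA, with the build mm9; whether counting used strand was not stated. Values in each library were whole multiples of 1 step (within 0.1, for all values up to 400), read as the value of 1 read; reads are estimates, and no count model was fitted. Columns carry the treatment initials and a number that is not the labels' replicate number, so they were matched to groups only. Libraries of a group differed beyond counting error (chi-square per degree of freedom 26.4 and 28.3).

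Differences were fitted for all 11747 rows with limma 3.58.1 in R 4.3.3 on log2(normalized count + 1), with an intensity trend. The filter, a mean of at least 10, removed 0 rows. Residual degrees of freedom were 2 and prior ones 3.83; the fit was checked on simulated data. Tables were handled with Python 3.11.15 and pandas 2.3.3. Coding lengths came from GENCODE by RefSeq accession. Symbols came from the table, or from RefSeq by accession for 375 rows.

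Every member could be named. The 12 with the smallest p, Pcna and Mcm2 to Mcm7 were given by library, as were further members chosen after their values were seen. From each other list the genes past the test, or up to 4 with the smallest p, could be named; Others named (such as Nkx6-1, Nes, Id1, Id3, Bub1, Ccnb1, Cdk1, E2f1, Sox2, Lhx3 and Col4a1) were chosen after their values were seen. The members and lists were chosen with earlier results of these data known. The induced gene is not reported here. Alternatives were other pseudocounts, filters, scalings and variance settings, each library left out, and a replicate block.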

Additional observations from a re-analysis of the deposited data

How the results depend on the processing

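The count of 0 called members stood under other pseudocounts (0.5 or 5), other filters (none, or a mean of 50 or more), TMM and quantile scaling, a fit without trend and robust empirical Bayes, and with each library left out. The replicate block was the exception. The columns do not carry the labels' replicate numbers, so the block paired libraries 1 with 2 and 7 with 8 by column number. Their deviations from the group means correlated across rows (r = 0.63), but with 2 pairs and no label this does not show that they share a culture or run. With the block, which left 1 residual degree of freedom and whose estimated prior degrees of freedom were infinite, so that rows of like intensity shared 1 variance, 3508 rows were called, 1636 higher and 1872 lower (29.9% of all rows), with 18 members among them and 21 members at an unadjusted p under 0.05, where 38.6% of all rows were. Over all rows, no trend gave 105 calls, 27 higher and 78 lower, and robust empirical Bayes gave 419, with 132 higher. Quantile scaling put 13 members at an unadjusted p under 0.05, with 21.1% of all rows. Leaving out 1 library, with the lone library of a group assumed to vary like the others, gave 44 to 494 calls over all rows, 2 to 156 higher and 42 to 338 lower. It left 33 to 37 members above 0, 3 to 14 members at an unadjusted p under 0.05, and a member median of 0.090 to 0.22. Of 221 values of 17 named members under 13 alternatives, 207 kept their direction and stayed uncalled and 13 were called, all 13 with the block. Mcm4 changed sign, to -0.017, without library 1. With 2 libraries a group, the 95% intervals limit each member's difference but cannot show it to be 0.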

Other observations

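Genes that act at the exit from the cell cycle had values in both directions. Of 8 listed members of that list, 6 had values above 0 and 2 below, and none passed the test. Cdkn1c, which encodes the kinase inhibitor p57, had 9296 and 7179 counts without and 6563 and 5214 with doxycycline (-0.48 ± 0.16; limma, adjusted p = 0.167). Cdkn1b, which encodes p27, had 1496 and 1606 counts without and 1247 and 1359 with doxycycline (-0.25 ± 0.08; limma, adjusted p = 0.178). For these 2 inhibitors, and no other gene of the 8, both doxycycline libraries lay below both others, against 26.5% of all rows. The same libraries lay above both others in 4 of the 8, Gadd45g and Btg2 among them, against 26.7% of all rows. Gadd45g was at 0.51 ± 0.21 and Btg2 at 0.24 ± 0.11.

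The G1 cyclins pointed in different directions. Ccnd3 had 3144 and 3180 counts without and 3570 and 4161 with doxycycline (0.29 ± 0.09), while Ccnd1 had 2021 and 2079 without and 1702 and 1823 with doxycycline (-0.22 ± 0.07). Neither passed the test (limma, adjusted p = 0.155 and 0.178). Ccna2, the cyclin of S phase and G2, had 3283 and 3812 counts without and 3922 and 4442 with doxycycline, a value of 0.24 ± 0.10 that did not pass either.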
